A study of Arabidopsis thaliana with 4 samples.

Results

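The pectin-modifying enzymes of Arabidopsis roots and the proteins that inhibit them were described across 4 microarrays. The set held every gene whose array annotation title names a pectinesterase, pectin methylesterase, pectate lyase, pectin lyase or polygalacturonase, without the 2 polygalacturonase-inhibiting proteins. It comprised 188 of the 20341 genes that had a probe set of their own. By their annotated function they were 59 pectin methylesterases (PMEs), 47 proteins of the PME inhibitor family, 24 pectate lyases and 54 polygalacturonases. A further 3 were SKU5-similar proteins, which resemble multicopper oxidases and carry a pectinesterase title, and 1 gene had no function term. The study compared wild-type plants with the mutant wrky47-1, in which the gene for the transcription factor WRKY47 is altered, to see how the mutation affects gene expression in roots. Plants of both genotypes were 4 weeks old and had been grown hydroponically, and all were moved into 0.5 mM CaCl2 for 6 h. The solution of the Al groups also held 25 µM AlCl3, and that of the control groups none. Each of the 4 groups (wild-type control, wrky47 control, wild type with Al, wrky47 with Al) was measured on 1 array of whole-root RNA. The number of plants in a sample, the kind of mutation and its position in the gene were not given in the sources used here.

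Pectin is the main aluminium-binding polysaccharide of the root cell wall. Its main chain, homogalacturonan, is secreted in a methylesterified form. PMEs remove the methyl groups and leave carboxyl groups that bind calcium or aluminium, and proteins of the PME inhibitor family block PMEs. Pectate lyases and polygalacturonases then cut the demethylesterified chain, the former by elimination and the latter by hydrolysis. All of these proteins come from large gene families, and many members are known from pollen and from organs other than the root.

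With 1 array per group there was no spread between replicates, so no difference below was tested. A difference of single arrays may hold plant-to-plant and array-to-array variation of any size. In whole roots, fewer cells of a type and less RNA per cell cannot be told apart. A gene was called detected on an array when its signal exceeded a floor at the 40th percentile of that array's gene signals, of 75.0 to 81.1 signal units. A difference was called when it reached 2-fold between arrays that both detected the gene. Signals of a gene are listed in the order wild-type control, wrky47 control, wild type with Al and wrky47 with Al. Probes differ between genes, so signals are no measure of relative abundance between genes. Within a class, genes were ranked by signal to choose which to name.

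WRKY47 itself had signals of 173, 27.5, 203 and 24.1, below the floor on both wrky47 arrays and above it on both wild-type arrays. Of 8 root marker genes, 7, 7, 6 and 5 were detected, with summed signals of 13977, 12430, 5481 and 4224. The nitrate transporter gene NRT2:1 alone made up 9817 of the first sum and 4186 of the third, so the sums follow mainly that gene, at 9817, 9867, 4186 and 3052. The root cap marker SMB was below the floor on every array. The endodermal gene CASP1 had signals of 2649, 1288, 249.5 and 193, the stelar channel gene SKOR 309, 146, 92.5 and 65.5, and the root hair expansin EXPA7 156, 91.9, 52.1 and 39. These 3 genes and SHV2, a root hair gene, at 178, 143, 125 and 98.7, were lower on the wrky47 control array than on the wild-type control array, and lower again on both Al arrays. The other markers differed in this, with SCR, an endodermal regulator, at 366, 416, 287 and 297 and EIR1, an auxin efflux gene, at 459.8, 437, 447 and 439. Whether cell make-up had a part in the lower enzyme signals described below was not tested. Of 7 pollen markers, 6 were on the array and none was detected, at signals of 15.8 to 47.1. The 1 green-tissue marker with a probe set of its own, LHCA1, lay between 70.9 and 88.9, at the floor.

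Most genes of the set were not detected in these roots. 63 of the 188 genes (33.5%) were detected on all 4 arrays, 13 on some and 112 (59.6%) on none. Among all genes, 60.1% were detected on all 4 and 33.8% on none. The share detected on all arrays was highest for pectate lyases, at 11 of 24. It was 20 of 59 for PMEs, 17 of 54 for polygalacturonases and 14 of 47 for the inhibitor family. The members detected per array numbered 71 in the wild-type control, 74 in the wrky47 control, 66 in wild type with Al and 68 in wrky47 with Al. Counts below are over detected genes only, so they say nothing of the genes below the floor.

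**Figure D1:**
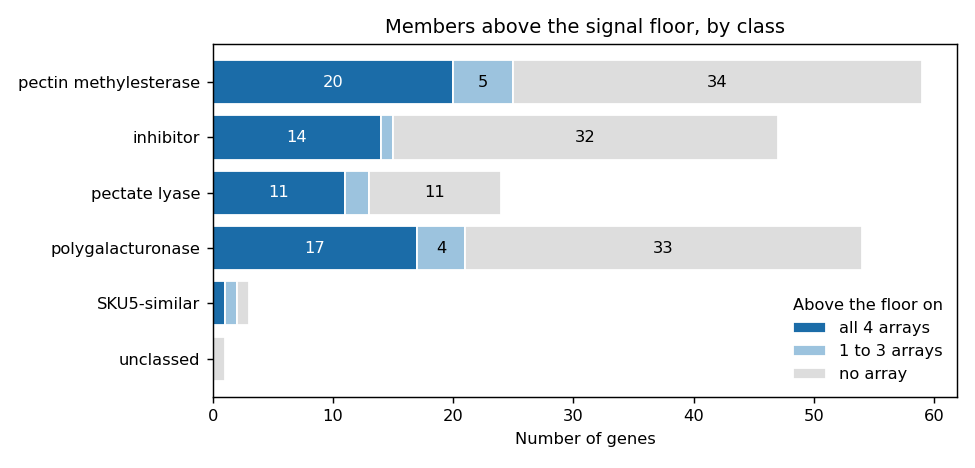
Number of genes of each class detected on all 4 arrays, on 1 to 3 and on none, where detected means above the floor of an array. In every class except the pectate lyases and the 3 SKU5-similar genes, genes detected on none outnumber those detected on all 4, as for 34 against 20 PMEs.

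With Al in wild type, 2 of the 65 genes measured rose at least 2-fold and 6 fell. That is 3.08% and 9.23% of them, where 3.05% of all measured genes rose and 2.42% fell. With a stricter floor, at the 60th percentile, 35 genes were measured and 1 fell. Most of the 6 falls were thus of genes below that floor on at least 1 array. The share of all genes that fell was not computed at that floor for either genotype. In wrky47, 2 of 68 rose and 2 fell (0 of 33 fell with the stricter floor), or 2.94% each way, against 3.42% and 1.97% of all measured genes. The median log2 difference of the set was -0.29 in wild type and -0.18 in wrky47. Both lay below the medians of all genes, -0.12 and -0.07. Al gave a value below 0 for 47 of 65 genes in wild type and 44 of 68 in wrky47, which is 72.3% and 64.7%. For all genes these shares were 64.0% and 57.8%, so values below 0 were the majority among all genes too. After quantile normalization the wild-type median of the set was -0.22, with 43 of 65 genes (66.2%) below 0 against 55.0% of all genes. At 1.5-fold, 4 genes (6.15%) were higher and 19 (29.2%) lower in wild type, against 7.47% and 9.39% of all genes. In wrky47, 7 (10.3%) were higher and 12 (17.6%) lower, against 8.76% and 7.06%.

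The PMEs moved furthest, and in both directions. PME17, whose product is a secreted PME known from root growth and from defence in Arabidopsis, had signals of 716, 553, 2571 and 1831. Both Al arrays lay above both control arrays, by 3.59-fold in wild type and 3.31-fold in wrky47. The signals of PME1 were 708, 589, 1499 and 1034, again higher on both Al arrays, and its rise reached 2-fold in wild type (2.12-fold) but not in wrky47 (0.81 log2). PME17 and PME1 were the only genes of the set to rise at least 2-fold in wild type. On the array's alignment table, whose genome build is not named, the PME17 probes match chromosome 2 between 18644280 and 18646394 on the minus strand.

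PME41, known in Arabidopsis for a part in chilling tolerance, had signals of 362, 235, 411 and 524. It rose in wrky47, by 1.16 log2, from a control signal that was the lowest of the 4, and differed by 0.18 in wild type. AT2G47550, a PME without a symbol in the table used, was at 673, 620.5, 1049.8 and 1035. Its differences of 0.64 in wild type and 0.74 in wrky47 stayed under 2-fold, with no overlap between the control and the Al arrays.

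The largest fall of the set was that of AT1G02810, titled pectinesterase 7 in the array annotation. Its signals were 721, 632, 151 and 135, a fall of 4.77-fold in wild type and 4.69-fold in wrky47. Its probes match chromosome 1 between 618283 and 620333 on the plus strand of the same alignment table. The fall had nearly the same size in both genotypes, and the genotypes differed by -0.19 in control and -0.16 with Al. PMEPCRF, another PME, had signals of 273, 261, 195 and 118 and fell past 2-fold in wrky47, by 1.15 on the log2 scale (-0.49 in wild type), which an added offset brought to -0.99. That difference between genotypes was not tested.

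AT5G04960, a PME numbered 46 in its title, was detected on the control arrays only, with signals of 154, 80.1, 34.6 and 36.9. From the control signal to the floor of the Al array, its fall was at least 2.05-fold in wild type and at least 1.07-fold in wrky47. Of the 413 genes detected in the wild-type control and not with Al, 12.6% were lower by a bound of 2-fold or more. AT3G10720, titled pectinesterase 25, had signals of 800.4, 396, 535 and 517. The wild-type control array stood apart from the other 3, and the difference of -1.01 between genotypes in control was the only one of the set to reach 2-fold. It was -0.97 after quantile normalization and -0.96 after centring or with an added offset, under 2-fold in each case.

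The 4 PMEs with the strongest signals were PME17, PME1, PMEPCRA and PME3, and the last 2 stayed under 2-fold. PMEPCRA, whose product also has ribosome-inactivating activity, had signals of 7909.9, 7733, 6544 and 5274, and PME3 had 3605, 3659.9, 3559 and 3256. With Al these differed by -0.27 and -0.02 in wild type and by -0.55 and -0.17 in wrky47. QRT1, needed in Arabidopsis for the separation of pollen grains, was detected in all 4 samples, at 134, 114, 112 and 159. PME31 was at 306, 379.8, 223 and 232, lower on both Al arrays, by less than 2-fold (-0.46 and -0.71). AT5G19730 had 144, 174, 87.7 and 140.4, and the wild type with Al was the lowest of its arrays. AT1G23200 had 111, 145, 159.6 and 166, lowest in the wild-type control. Of the PMEs, 42 carry an enzyme inhibitor term for an N-terminal pro-region that resembles a PME inhibitor, and 17 do not. The 15 measured genes with the term had a median Al difference of -0.08 in wild type, which was 0.03 after quantile normalization, and 0.16 in wrky47. The 5 without it had medians of -0.46 and -0.31.

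**Figure D2:**
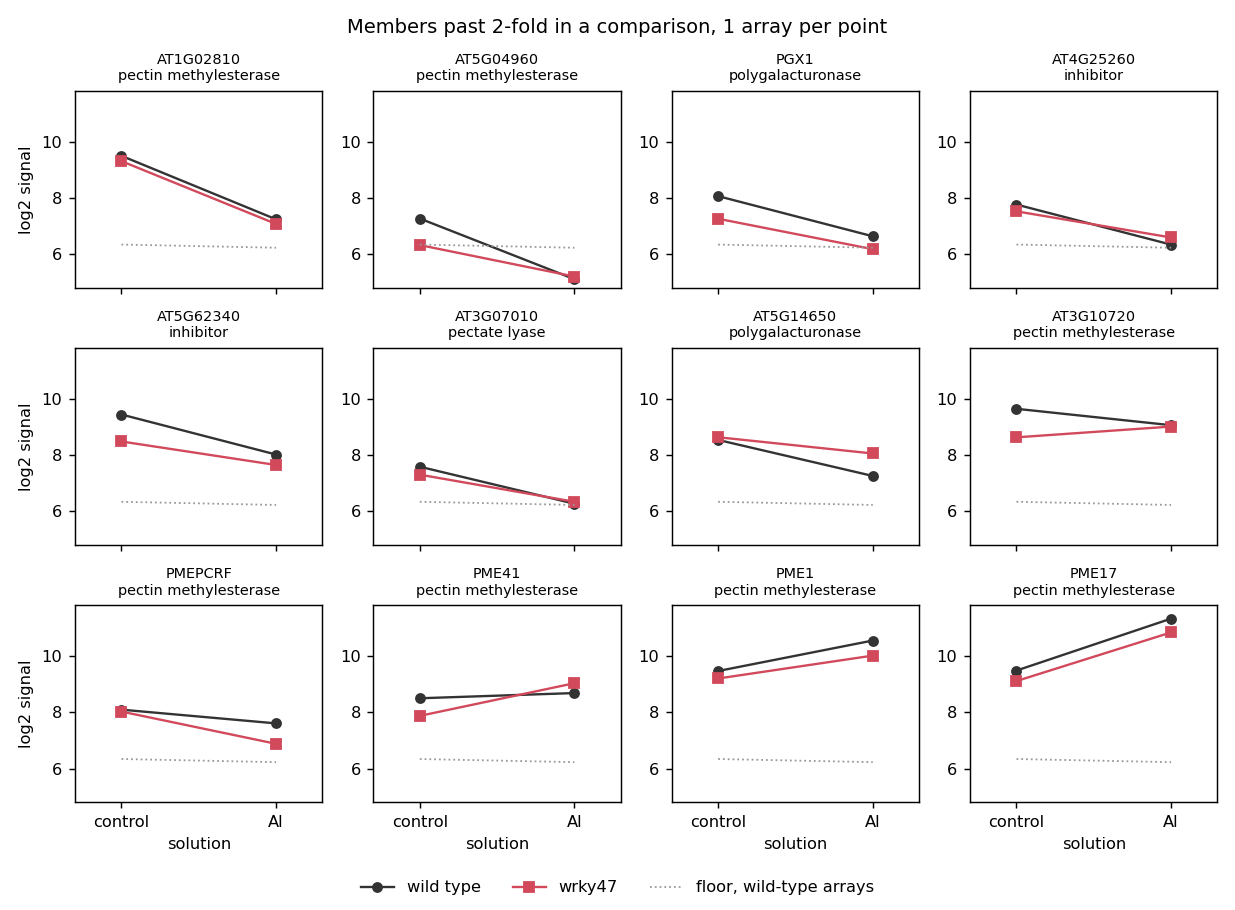
Signal on each of the 4 arrays (log axis, 1 point per array) of each gene that differed by at least 2-fold, or by a bound of 2-fold, in any comparison; the dotted line is the floor of the wild-type arrays. PME17 and PME1 are higher on both Al arrays than on both control arrays, and AT1G02810 is lower on both.

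In the inhibitor family, 2 of 14 measured genes fell in wild type, where 2.42% of all genes did, and 0 rose, where 3.05% of all genes did. AT5G62340 had signals of 696, 358, 259 and 201. The wild-type control was higher than the other 3 arrays, and the Al difference was -1.42 in wild type and -0.84 in wrky47. AT4G25260 was at 217, 184, 80.9 and 96.5, with Al differences of -1.42 and -0.93. Its Al signals lay just above the floors. UNE11, known from an Arabidopsis mutant with a defect in fertilization, went the other way, at 997, 526, 1457 and 914. It differed by 0.55 with Al in wild type and 0.80 in wrky47, and was lower in wrky47 than in wild type in both solutions, by -0.92 and -0.67. AT5G62350, next on the chromosome to AT5G62340, had signals of 4584, 3925, 3442 and 4027, and AT4G12390 had 2339, 2276, 2233 and 2075, with differences of at most 0.45 in size in any comparison. AT2G01610 was at 333, 280.2, 267 and 428, highest in wrky47 with Al, with Al differences of -0.32 in wild type and 0.61 in wrky47. AT1G14890 was at 793, 948, 853 and 715, with Al differences of 0.11 and -0.41. PMEI6, known in Arabidopsis from seed mucilage and chosen here after its values were seen, was at 239, 152, 182 and 163, highest in the wild-type control. C/VIF1 and C/VIF2, which carry the family's domain but inhibit invertases and were likewise chosen after their values were seen, lay between 232 and 292 and between 126 and 136.

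The pectate lyases were the class with the most uniform shift in wild type. The Al difference was below 0 for 11 of 12 measured genes, with a median of -0.62. The median was -0.49 after quantile normalization and -0.55 after centring each array, below 0 under both scalings. 7 of the 12 were lower by 1.5-fold or more, where 9.39% of all genes were. In wrky47, 10 of 12 were below 0, against 57.8% of all genes, and the median was -0.20. Between genotypes in control, 10 of 12 measured pectate lyases were lower in wrky47, against 60.1% of all genes. The median was -0.26 against -0.05 for all genes. After quantile normalization and after centring the count was 9 of 12, with a median of -0.21 in each. The shares of all genes were then 48.8% and 48.9%. That comparison and the Al comparison in wild type share the wild-type control array. AT3G07010 was the only pectate lyase past 2-fold in wild type, at 192, 158, 77.3 and 81.1 and a difference of -1.31. In wrky47 it differed by -0.96, and its Al signals lay near the floor in both genotypes.

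AT4G24780, the pectate lyase with the strongest signals, was at 3334, 2464, 1911 and 2249.9. The wild-type control was highest and the wild type with Al lowest, and both wrky47 arrays lay between them, so that Al differences were -0.80 in wild type and -0.13 in wrky47. AT1G04680 and AT3G53190 had Al differences of -0.82 and -0.67 in wild type and -0.53 and -0.61 in wrky47. AT1G67750 was at 517, 541, 292 and 272, lower on both Al arrays, with differences of -0.82 and -0.99. PMR6, needed in Arabidopsis for susceptibility to powdery mildew and chosen here after its values were seen, differed by -0.30 and -0.27. AT3G55140 was nearly level, at 434, 423, 409.8 and 416. AT3G27400 was at 143, 155, 104 and 201, lowest in wild type with Al and highest in wrky47 with Al. AT5G48900, also chosen after its values were seen, was the exception in direction, at 378, 264, 491 and 435.

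Among the polygalacturonases, 2 of 18 measured genes fell in wild type, against 2.42% of all genes. PGX1, whose product acts in cell expansion in Arabidopsis, had signals of 267, 153, 99.4 and 72.4. In wild type it fell by 1.43 (log2), and in wrky47, where the Al signal was below the floor, it was at least 2.04-fold lower. Of the 390 genes detected in the wrky47 control and not with Al, 9.74% were lower by a bound of 2-fold or more. AT5G14650 had signals of 372, 397, 153 and 266. It was lower on both Al arrays, with differences of -1.28 in wild type and -0.58 in wrky47. PG2 and PG1 had differences of -0.68 and -0.74 in wild type and -0.65 and -0.30 in wrky47. These genes and JP630 count as polygalacturonases by the array annotation alone. Whether their products cut pectin was not examined. QRT2, known in Arabidopsis from the separation of pollen grains, was at 156, 205, 234 and 259.7, higher on both Al arrays by less than 2-fold. JP630 was at 153, 161, 163 and 102, where the wrky47 Al array was the lowest. AT3G16850 was at 459, 349.9, 324 and 266 and AT3G57790 at 313, 258, 332 and 279.8, both higher in wild type than in wrky47 in either solution by less than 1.5-fold. AT3G61490 was at 99.5, 119, 81.9 and 90.8, close to the floor. The class medians were -0.26 in wild type and -0.18 in wrky47.

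Of the 3 SKU5-similar proteins, SKS6 was detected on all arrays, at 1593, 1441, 1452 and 1566, with differences of at most 0.25 in size. sks16 was detected in the wild-type control alone.

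**Figure D3:**
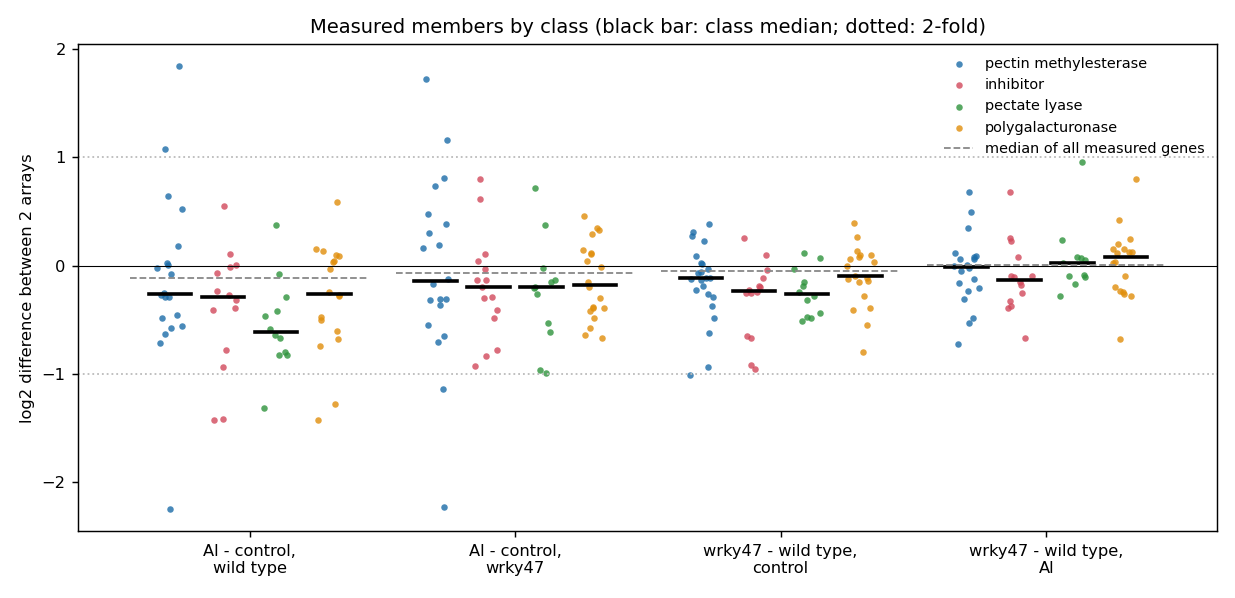
Log2 difference between 2 arrays for every measured PME, inhibitor-family gene, pectate lyase and polygalacturonase. From left to right are Al minus control in wild type and in wrky47, then wrky47 minus wild type in control and with Al. Black bars are class medians, dashed lines the median of all measured genes, and dotted lines 2-fold. With Al in wild type, pectate lyases lie lowest, with a median of -0.62 over 12 genes, and PMEs spread from -2.26 to 1.84.

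Between genotypes in control, 0 of 69 measured genes were higher in wrky47 by 2-fold and 1 (1.45%), AT3G10720, was lower. The shares of all measured genes were 0.103% and 0.206%. Of the 69, 50 (72.5%) were below 0, against 60.1% of all genes, and the median was -0.14 against -0.05. After quantile normalization, 46 (66.7%) were below 0 against 48.8% of all genes, and the median was -0.08 against 0.01. After centring, 46 of 69 stood against 48.9%, with medians of -0.09 and 0.01. At 1.5-fold, 0 were higher and 8 (11.6%) lower, against 0.92% and 1.87% of all genes. After AT3G10720, the largest differences were those of AT5G62340 (-0.96), AT5G04960 (-0.94), UNE11 (-0.92) and PGX1 (-0.80). This comparison and the Al comparison in wild type share the wild-type control array. The 2 results are therefore not independent. The Al difference in wrky47 does not use that array, but it shares the wrky47 control array with the comparison of genotypes in control. It was -0.84 for AT5G62340 and at least 2.04-fold lower for PGX1, but 0.38 for AT3G10720 and 0.80 for UNE11. For AT5G04960 it gave only a bound, from a wrky47 control signal just above the floor.

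With Al, 0 of 64 genes differed by 2-fold between genotypes in either direction, where 0.23% of all genes were higher in wrky47 and 0.111% lower. The median was -0.01, and 33 of 64 genes were below 0, against 49.3% of all genes. At 1.5-fold, 4 (6.25%) were higher in wrky47 and 3 (4.69%) lower, against 1.36% and 1% of all genes. Among the largest differences were those of AT3G27400 (0.95), a pectate lyase, AT5G14650 (0.80), PMEPCRF (-0.73) and JP630 (-0.68).

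A pair of further genes, chosen after their values were seen, were above the floor on both wrky47 arrays and below it on both wild-type arrays. The inhibitor-family gene AT3G47380 had signals of 58.1, 110.3, 55.3 and 89.7, at least 1.36-fold higher in wrky47 in control and at least 1.2-fold higher with Al. The polygalacturonase gene AT2G43870 had signals of 43.4, 86, 50.4 and 108, at least 1.06-fold and at least 1.44-fold higher. These bounds are small, and the highest of these signals was 110.3 against floors of 75.0 to 81.1. The share of all genes split by genotype in this way, in either direction, was not computed. The pair is therefore no result about the set.

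The difference of the Al responses, wrky47 minus wild type, was past 2-fold for 0 of 63 genes, against 0.131% and 0.0573% of all genes in the 2 directions. At 1.5-fold, 8 genes were higher in wrky47 (12.7%, against 2.1% of all genes) and 2 were lower (3.17%, against 0.875%). The 8 were PME41, AT3G10720, AT2G01610, AT3G27400, QRT1, AT5G14650, AT4G24780 and AT5G62340, and the 2 were JP630 and PMEPCRF. AT5G62340, at 0.59, lay at the threshold. The 8 came from each of the 4 large classes. For the pectate lyases, 10 of 11 values were above 0 with a median of 0.30, where 59.6% of all genes were above 0. The count depended on the scaling: it was 8 of 11 (median 0.24) after quantile normalization and 7 of 11 (median 0.23) after centring, against 48.4% and 47.7% of all genes. These values too rest on the wild-type control array.

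Al responses in the 2 genotypes share no array. For the 63 genes above the floor throughout, the response had the same sign in 49 (77.8%), with Pearson's r of 0.81 and Spearman's rho of 0.71. For all genes the same shares were 79.7%, 0.88 and 0.78. The genotype differences in the 2 solutions also share no array, and had the same sign in 41 of 63 genes (65.1%), with r of 0.30 and rho of 0.30, against 61.6%, 0.43 and 0.37 for all genes. These values describe genes, which are not independent replicates.

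**Figure D4:**
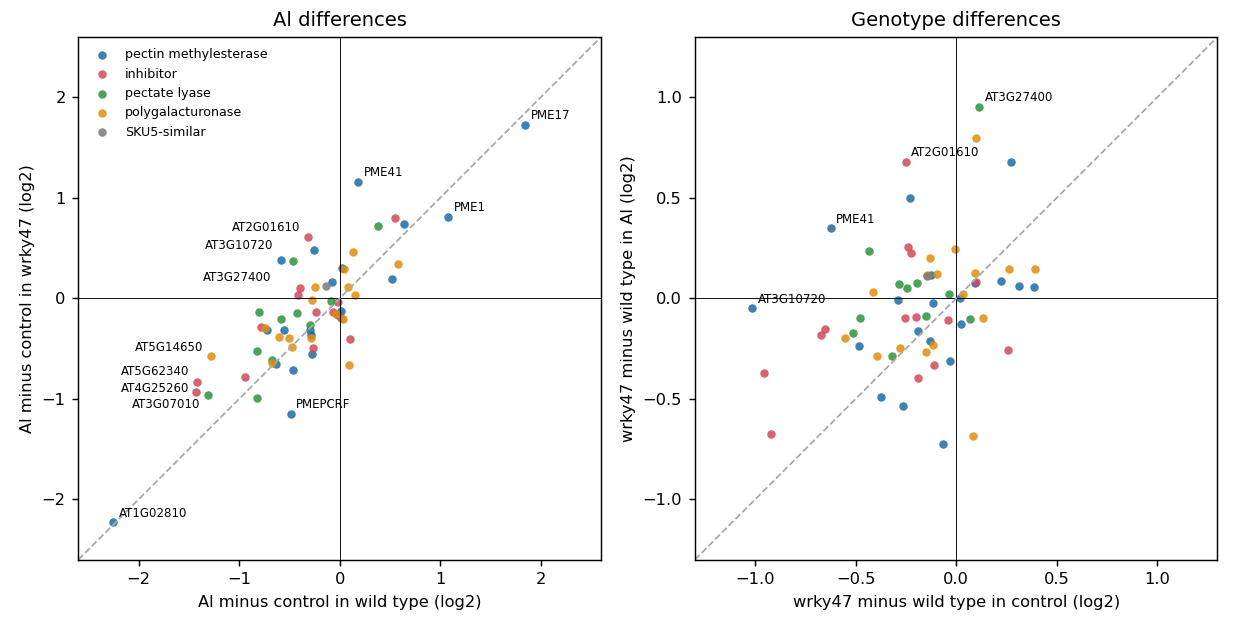
Left, the Al difference in wild type (x axis) against that in wrky47 (y axis); right, the genotype difference in control against that with Al; each point is 1 of the 63 genes detected on all arrays (log2 scale) and the dashed line marks equal values. PME17, PME1 and AT1G02810 lie near the diagonal on the left.

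Genes that make pectin or act on it in other ways were examined from further lists, chosen like the set itself with earlier results of these data known. Among all measured genes, 3.05% rose and 2.42% fell by 2-fold with Al in wild type, and 3.42% and 1.97% in wrky47. Between genotypes no such share was above 0.23%. At these shares, 0 genes past 2-fold in a short list is no result particular to that list. The 18 genes listed for pectin synthesis are mostly titled as enzymes that build or methylesterify the chain, with ARAD1 titled arabinan deficient 1. Of the 18, 16 were measured and 0 passed 2-fold in any comparison. Their median Al differences were -0.18 in wild type and -0.07 in wrky47. GAUT14, a galacturonosyltransferase known from pollen tube growth in Arabidopsis, was at 219, 191, 279 and 314, with Al differences of 0.35 and 0.71. GAUT3 was at 247, 279, 211 and 297. Of 13 genes that supply UDP-sugars, 11 to 12 were measured and 0 passed 2-fold. Their median Al differences were 0.15 and 0.22. UGD2, which makes UDP-glucuronic acid, was at 1928, 1592, 3048 and 2771, higher on both Al arrays, and RHM1, a rhamnose synthase, was at 1118, 951, 1368 and 1432.

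Of 12 pectin acetylesterases, which remove acetyl groups, 7 were measured in wild type and 6 in wrky47, and 1 rose in each genotype. That gene was PAE11, at 1213, 1031, 6237 and 5814, a rise of 2.36 and 2.50 log2. The others lay below 0 in both genotypes, 6 of 6 and 5 of 5, where 64% and 57.8% of all measured genes did. AT5G26670 was nearly level in wrky47, at -0.02, and the values of this list are given without rescaling. AT3G05910 was at 636, 501, 402 and 449. PGIP1, which inhibits polygalacturonases of fungi, was at 2167, 1617, 5209.9 and 4853, a rise of 1.27 and 1.59, and PGIP2 was below the floor. Of 7 wall sensors, 3 were measured and 0 passed 2-fold. The receptor kinase THE1 had signals of 272, 149, 177 and 168, and WAK4, a wall-associated kinase, 438, 388, 364 and 281.

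**Figure D5:**
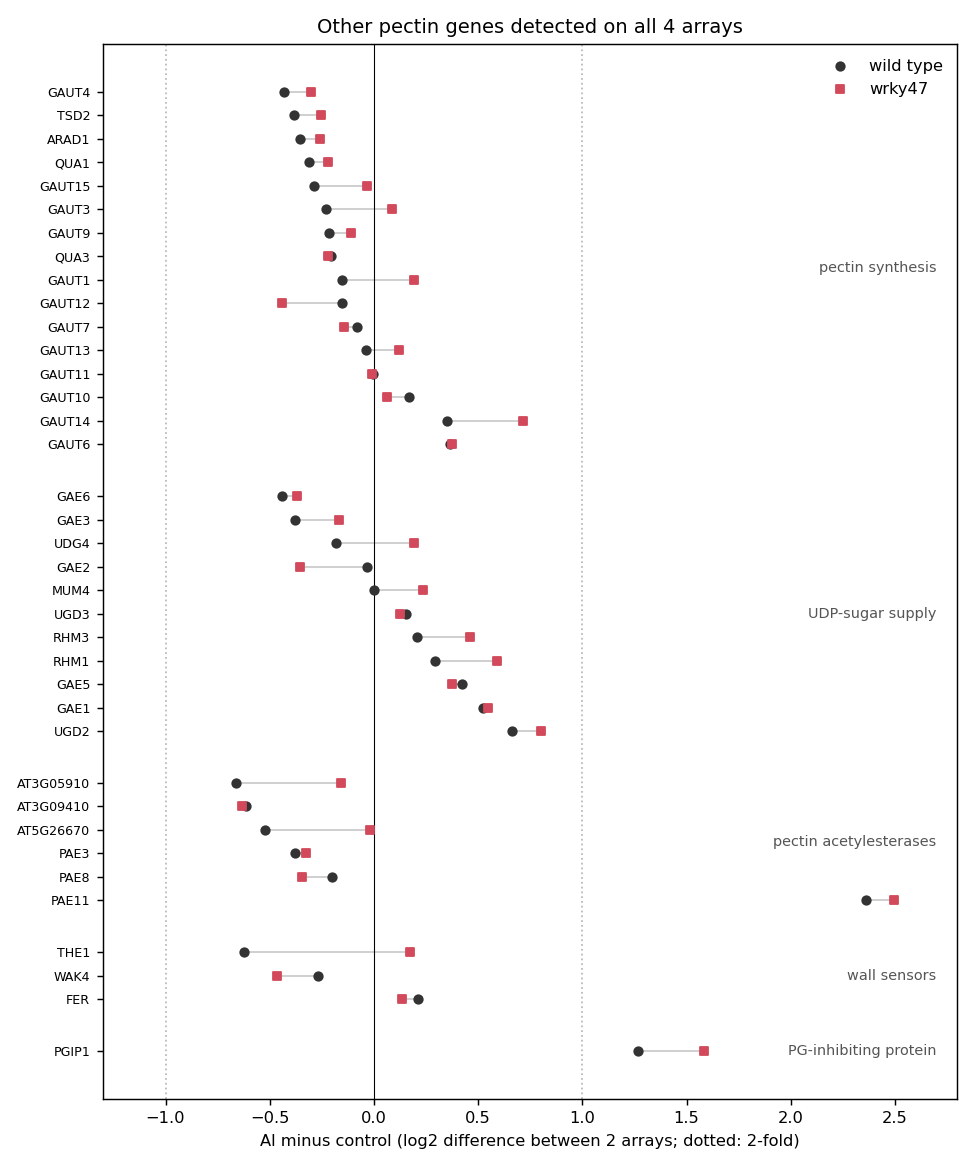
Al minus control (log2) in wild type and wrky47 for the genes of other pectin lists detected on all 4 arrays, grouped by list; dotted lines mark 2-fold. PAE11 and PGIP1 lie past 2-fold in both genotypes.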

How the data were processed

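Root RNA of 4 samples, 1 per group, was labelled with Cy3 and hybridized to 1 array each, per the labels. The deposited tables gave 1 log2 signal per probe set, made with MAS5 per the submitters' processing notes; no source used here gives its version, the scaling or a genome build. A second set of deposited columns holds the same values as linear intensity (2 to the power of the log2 value, largest gap 1.6e-06). Columns were tied to samples through their names and through the deposited value table, from which 0 cells differed.

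Of 22746 gene probe sets, 20550 name 1 gene and 987 several. The 20550 were reduced to the brightest per gene, giving 20341 genes, and 10 probe sets matching the title rule but naming several genes were left out. Class was read from function terms and titles in the array annotation, and symbols from RefSeq, where all 188 members matched. A gene was detected on an array above the 40th percentile of the array's gene probe sets, and measured in a comparison when detected on both arrays. Genes detected on 1 array gave a bound against the other array's floor. Differences are of log2 signals, called at 2-fold; percentages of all genes use the same rule. No test was possible, and the number of arrays limits precision. Named genes were members past 2-fold, the 4 with the strongest signals per class and the 5 extremes per comparison (41 in all); the few others are stated where named. Members and lists were chosen with earlier results of these data known. The steps were tested on simulated data, with differences put only into the wild-type Al array for genes well above the floor. Recovery near the floor, bounds and comparisons between genotypes were not tested in this way. Python 3.11.15, pandas 2.3.3, numpy 2.4.6 and matplotlib 3.10.9 were used. Alternatives were quantile normalization, centring, a 60th percentile floor, no filter, an added offset at the 20th percentile, a 1.5-fold threshold, the mean of probe sets and the second table. No sequences were used.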

Additional observations from a re-analysis of the deposited data

Results flagged for a closer look

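Al gave opposite signs in the 2 genotypes, each at least 1.2-fold, for 3 of the 63 genes detected on all arrays. The differences between genotypes were not tested, and the share of all genes that meet this rule was not computed. Signs of any size were the same for 77.8% of the 63 genes and 79.7% of all genes. The inhibitor-family gene AT2G01610 differed by -0.32 in wild type and 0.61 in wrky47, a gap of 0.93. The PME gene AT3G10720 differed by -0.58 and 0.38, a gap of 0.96. The pectate lyase gene AT3G27400 differed by -0.47 and 0.37, a gap of 0.84. For PME41 the genotype difference had opposite signs in the 2 solutions, -0.62 in control and 0.35 with Al, a gap of 0.98 that was likewise not tested.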

How the results depend on the processing

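No paired analysis was possible because each group holds 1 array. Of 80 counts recomputed under 8 alternatives, 62 stayed within 1.5 times the reported count, and 0 values changed sign past the threshold. At 1.5-fold, 4 genes were higher and 19 lower with Al in wild type, 7 and 12 in wrky47, 8 lower in wrky47 than wild type in control, 4 higher and 3 lower with Al, and 8 higher and 2 lower for the difference of responses. Quantile normalization, centring and the offset each left 0 genes lower in wrky47 in control, where AT3G10720 was at -0.97, -0.96 and -0.96. The offset left 1 gene lower with Al in wrky47. The 60th percentile floor left 1 lower in wild type and 0 in wrky47, with 35 and 33 genes measured. Without a filter, 4 genes were lower with Al in wrky47, 1 was higher in wrky47 than wild type with Al, and 1 was higher for the difference of responses. Without a filter, the median over all 188 genes was 0.00 for Al in wild type and 0.01 for wrky47 in control. The second table and the mean of probe sets changed none of their 10 counts each. The second table differed in 0 cells, and only 1 member had 2 probe sets. These counts are among the 62 but could hardly have moved, so they say nothing of robustness. Genes near the floor limit what these arrays can show, since 112 of the 188 members were below it throughout.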

Other observations

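The set holds 23 pairs of members that are neighbouring protein-coding genes, 42 genes in all, and in 2 pairs both were detected on all 4 arrays. Both pairs lie in a run of 3 inhibitor-family genes on chromosome 5, AT5G62340, AT5G62350 and AT5G62360, whose probes span 25033601 to 25041310. AT5G62360, named for its position after its values were seen, had signals of 1196, 749.7, 697 and 614. The Al differences of the 3 genes in wild type were -1.42, -0.41 and -0.78, all below 0, and in wrky47 -0.84, 0.04 and -0.29. Of the 10 probe sets that match the title rule but name several genes, 9 were below the floor on every array. The other, shared by AT1G23460 and AT1G23470, had signals of 104, 70.7, 84.8 and 71.4 and differed by less than 2-fold in every comparison.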
